A study of Homo sapiens with 6 samples.

Results

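Transcripts of 10 genes that build and remodel actin filaments were followed in HCT116 cells, a line long in culture that comes from a human colorectal carcinoma. The genes were taken by symbol from the deposited tables, all 10 were found, and they are 10 of 19942 gene symbols. They comprise the actins ACTB, ACTG1 and ACTA2, the cofilins CFL1 and CFL2, the profilins PFN1 and PFN2, and the tropomyosins TPM1, TPM3 and TPM4. The members were chosen by measured values of these libraries, namely the lower CFL1 and higher ACTA2 levels in cells given an siRNA against EHMT2, so values of that contrast are a description and carry no test for these genes. The libraries came from parental (wild-type) cells and from cells resistant to 5-fluorouracil (5-FU), a pyrimidine analogue that blocks thymidylate synthesis. Each kind of cell is represented with no siRNA named in its label, with a control siRNA and with EHMT2 siRNA, which makes 6 groups of 1 library each. EHMT2 encodes the histone H3K9 methyltransferase G9a, and the series asks how it bears on acquired resistance. How resistance was raised, whether the resistant cells are 1 clone or a pool, the siRNA dose and the time of harvest are not given in the labels.

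Actin exists as monomers and as filaments that grow at one end and shrink at the other. Profilins hand monomers to the growing end, cofilins sever older filaments and free monomers from the shrinking end, and tropomyosins lie along the filament and regulate which proteins, cofilin among them, reach it. ACTB and ACTG1 encode the cytoplasmic actins of nearly all cells, whereas ACTA2 encodes the actin of smooth muscle and of contractile fibroblasts and is normally scarce in epithelial cells.

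The coding sequences show how far reads of related members can be told apart. ACTB and ACTG1 share 91.3% of their 1125 coding bases, with a longest identical run of 59 bases. ACTA2 shares 81.8% with ACTB. CFL1 and CFL2 share 70.1% of 498 coding bases, PFN1 and PFN2 60.5%, and the tropomyosin pairs between 75.3% and 79.8%. The first 60 coding bases of the cytoplasmic actins and of the cofilins, from GENCODE 29 transcripts on build GRCh38, are shown because the results turn on the balance within these pairs. Capitals mark bases of ACTG1 that differ from ACTB and of CFL2 that differ from CFL1, 10 and 18 of the 60 bases.
ACTB: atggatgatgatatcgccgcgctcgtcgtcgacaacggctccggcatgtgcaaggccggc
ACTG1: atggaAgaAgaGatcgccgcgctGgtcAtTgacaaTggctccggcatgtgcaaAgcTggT
CFL1: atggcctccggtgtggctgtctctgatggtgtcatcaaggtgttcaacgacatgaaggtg
CFL2: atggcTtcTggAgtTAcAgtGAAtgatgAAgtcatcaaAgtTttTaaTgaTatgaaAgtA

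Promoter windows of 250 bases before the start site were taken from RefSeq (GRCh38.p14), which listed 13 start sites for 8 of the members and had no entry for ACTB and PFN2. They are shown for CFL1 and ACTA2, the members that differed most with EHMT2 siRNA, and for ACTG1 and TPM4, whose windows hold an exact CArG box. The CArG box is the palindromic site bound by serum response factor, the factor that many actin genes answer to. Only exact matches to CCWWWWWWGG were counted, with W for A or T. Such a match was in 2 of the 13 windows, beginning 94 bases before the ACTG1 start and 173 bases before a TPM4 start. Of all 35116 promoter windows of the same length, 1.16% held a match. Near matches were not searched for in any window. The ACTA2 window shown holds ccctatatgg and ccttgtttgg, which depart from this pattern and so were not counted. CCAAT, searched on both strands as CCAAT or ATTGG, was in 2 of the 13 and in 32.0% of all windows, TATAA on either strand in 3 of the 13 and in 18.9%, and GGGCGG on either strand in 12 of the 13 and in 42.6%. Capitals mark the CArG box in ACTG1 (chr17:81512800-81513049, minus strand) and TPM4 (chr19:16067288-16067537, plus strand), TATAA in ACTA2 (chr10:88952774-88953023, minus strand) and CCAAT or its reverse complement in CFL1 (chr11:65858181-65858430, minus strand), and none of the marked matches overlap. A match describes the letters of the window and does not show binding.
CFL1: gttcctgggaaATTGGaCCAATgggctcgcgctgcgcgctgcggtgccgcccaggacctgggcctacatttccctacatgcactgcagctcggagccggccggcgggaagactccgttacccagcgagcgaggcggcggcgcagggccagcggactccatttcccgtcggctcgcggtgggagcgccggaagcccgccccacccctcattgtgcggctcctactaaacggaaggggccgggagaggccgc
ACTA2: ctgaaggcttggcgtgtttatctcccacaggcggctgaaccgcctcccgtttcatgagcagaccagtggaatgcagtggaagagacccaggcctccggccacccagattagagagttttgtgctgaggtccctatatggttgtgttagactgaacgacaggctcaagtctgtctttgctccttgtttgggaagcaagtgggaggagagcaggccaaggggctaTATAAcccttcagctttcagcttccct
ACTG1: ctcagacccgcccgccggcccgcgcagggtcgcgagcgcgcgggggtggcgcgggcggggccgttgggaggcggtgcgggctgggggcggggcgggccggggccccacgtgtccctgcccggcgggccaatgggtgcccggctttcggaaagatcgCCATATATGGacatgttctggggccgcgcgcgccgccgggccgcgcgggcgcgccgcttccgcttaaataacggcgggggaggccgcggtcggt
TPM4: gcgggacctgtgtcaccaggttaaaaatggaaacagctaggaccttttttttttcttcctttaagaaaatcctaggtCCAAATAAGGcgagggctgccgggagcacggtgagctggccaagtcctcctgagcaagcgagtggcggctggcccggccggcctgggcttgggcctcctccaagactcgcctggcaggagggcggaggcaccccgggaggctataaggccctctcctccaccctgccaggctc

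Levels are FPKM, a fragment rate scaled for transcript length and library size, which can be set side by side between genes. Library sums of FPKM ran from 360730 to 446165, and 11245 to 11730 genes per library reached 1 FPKM. The read depth is unknown, so no counting error can be given, and with 1 library a group, differences between single libraries were not checked by replicates. EHMT2 stood at 19.8 in parental and 27.3 in resistant cells with no siRNA, at 31.7 and 19.5 with control siRNA, and at 8.58 and 3.80 with EHMT2 siRNA, which is 27.1% and 19.5% of the control siRNA level. Of 8 epithelial markers, 7 (EPCAM, CDH1, KRT8, KRT18, KRT19, CLDN4 and CLDN7) were at 1 FPKM or more in every library, and CDH17 was listed at 0 throughout.

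**Figure D1:**
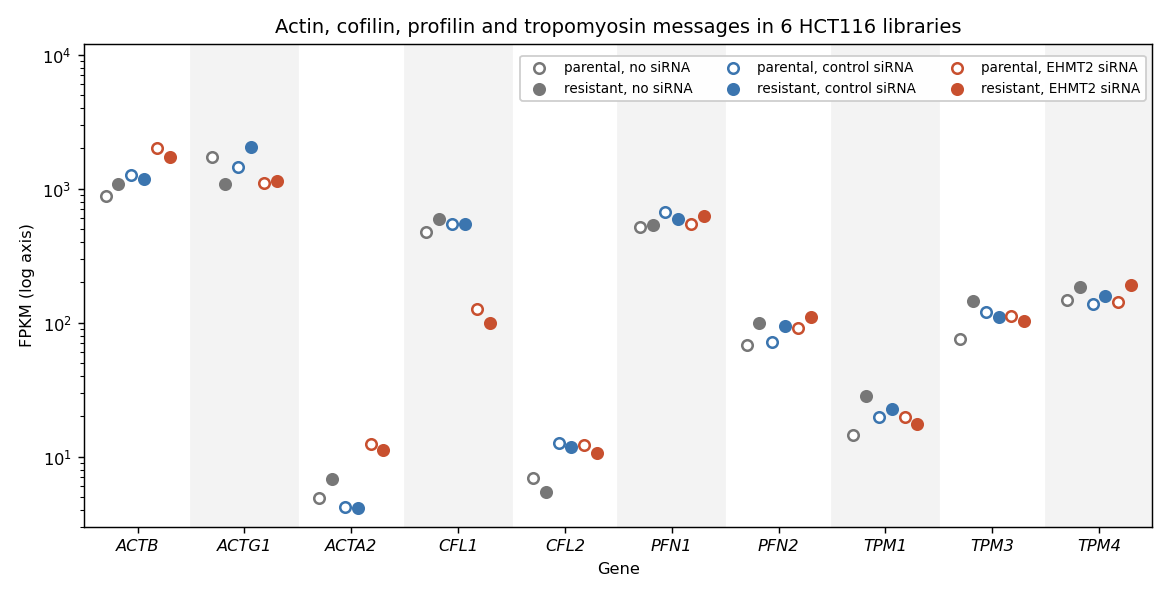
FPKM of the 10 genes (log axis) in each of the 6 libraries, open circles for parental and filled circles for resistant cells, coloured by treatment. CFL1 lay between 472 and 592 in the 4 libraries without EHMT2 siRNA and at 127 and 99.4 with it, while PFN1 stayed between 516 and 664 in all 6.

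The cytoplasmic actins were the most abundant members. With no siRNA, ACTB (ENSG00000075624, chromosome 7, 5527147 to 5563784) was at 877 FPKM in parental and 1081 in resistant cells, with control siRNA at 1266 and 1182, and with EHMT2 siRNA at 1997 and 1708. Both EHMT2 siRNA libraries were thus above the other 4. ACTG1 (ENSG00000184009, chromosome 17, 81509971 to 81523847) was at 1708 and 1082 with no siRNA, at 1438 and 2031 with control siRNA, and at 1108 and 1135 with EHMT2 siRNA. The ACTG1 level in resistant cells with no siRNA, 1082, was the lowest of all 6, so the EHMT2 siRNA libraries did not lie apart from the rest for this gene. ACTA2 (ENSG00000107796, chromosome 10, 88935074 to 88991339) was at 4.88 and 6.80 with no siRNA, at 4.24 and 4.14 with control siRNA, and at 12.5 and 11.1 with EHMT2 siRNA. ACTA2 was highest in both EHMT2 siRNA libraries, yet made up at most 0.400% of the summed FPKM of the 3 actins in any library.

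CFL1 (ENSG00000172757, chromosome 11, 65823022 to 65862026), the cofilin of non-muscle cells, had the widest range of the 10, 5.96-fold from the lowest to the highest library. Its level was 472 in parental and 592 in resistant cells with no siRNA, 548 and 544 with control siRNA, but 127 and 99.4 with EHMT2 siRNA. CFL2 (ENSG00000165410, chromosome 14, 34706769 to 34714823), the muscle cofilin, was at 6.95 and 5.45 with no siRNA, at 12.7 and 11.8 with control siRNA, and at 12.2 and 10.6 with EHMT2 siRNA. CFL2 separated the libraries by whether the label named an siRNA, with both no-siRNA libraries below the 4 siRNA libraries. CFL1 separated them by EHMT2 siRNA.

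PFN1 (ENSG00000108518, chromosome 17, 4945652 to 4949061), the ubiquitous profilin, had the narrowest range, 1.29-fold. It was at 516 and 538 with no siRNA, at 664 and 594 with control siRNA and at 546 and 629 with EHMT2 siRNA. PFN2 (ENSG00000070087, chromosome 3, 149964904 to 150050788), a profilin best known from neurons, was at 68.6 and 100.2 with no siRNA, at 71.5 and 95.1 with control siRNA and at 90.8 and 110.3 with EHMT2 siRNA. In each of the 3 treatments the resistant library had the higher PFN2 level.

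Among the tropomyosins TPM4 (ENSG00000167460, chromosome 19, 16067021 to 16103005) was the most abundant member, at 148 and 183 with no siRNA, 139 and 157 with control siRNA, then 142 and 191 with EHMT2 siRNA, and was higher in the resistant library each time. TPM3 (ENSG00000143549, chromosome 1, 154155304 to 154194648) was at 75.2 and 144 with no siRNA, 119.8 and 110.2 with control siRNA, then 111 and 102 with EHMT2 siRNA. TPM1 (ENSG00000140416, chromosome 15, 63042632 to 63071915) was at 14.5 and 28.6, 19.9 and 22.7, and 19.8 and 17.6 in the same order. TPM1 and TPM3 had their lowest level in parental and their highest in resistant cells with no siRNA. Their centred log2 profiles over the 6 libraries were the closest of any pair of members, with a root mean square distance of 0.11.

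By mean level the order was ACTG1, ACTB, PFN1, CFL1, TPM4, TPM3, PFN2, TPM1, CFL2, ACTA2. Neighbours overlapped in their ranges over the 6 libraries except at 3 places, between ACTB and PFN1, between PFN2 and TPM1, and between TPM1 and CFL2.

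The comparison of EHMT2 siRNA with control siRNA sets 1 library of each beside the other in either line. Whether a difference came from loss of EHMT2 or from another effect of the siRNA was not tested. CFL1 was at 23.2% of its control siRNA level in parental cells, a log2 ratio of −2.10 on the log2(FPKM + 1) scale used throughout, and at 18.3% in resistant cells, a ratio of −2.44. In this contrast, which chose it, CFL1 ranked 12th from the lowest of 11948 genes in parental and 8th of 11750 in resistant cells. ACTA2 was 2.95-fold higher in parental (log2 ratio 1.36) and 2.69-fold higher in resistant cells (1.24). These were the only members at least 2-fold apart in both lines, 1 higher and 1 lower of 10, and no other member was 2-fold apart in either line. Over all genes at 1 FPKM or more, 3.46% were at least 2-fold higher and 2.35% at least 2-fold lower in both lines. In parental cells alone these shares were 7.48% and 3.51%, and in resistant cells alone 5.22% and 4.04%. In extracts of a whole culture, fewer cells that express a gene and less RNA per cell cannot be told apart.

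Against control siRNA the other actins went opposite ways. ACTB had log2 ratios of 0.66 in parental and 0.53 in resistant cells, and ACTG1 of −0.38 and −0.84, and these directions held under each scaling tried. PFN2 had ratios of 0.34 and 0.21. TPM4 had 0.03 and 0.28, with the parental value below 0 when ratios were centred on the median of all genes. CFL2 (−0.06 and −0.14), TPM1 (0.00 and −0.35) and TPM3 (−0.10 and −0.11) were near 0 in parental cells, where all 3 were above 0 once each library was scaled to one sum. PFN1 was lower in parental (−0.28, but 0.13 after quantile normalisation) and barely different in resistant cells (0.08). The median over the 10 members was −0.03 in parental and −0.01 in resistant cells, beside 0.09 and 0.06 over all genes, with 4 of 10 above 0 in parental and 5 of 10 in resistant cells. Rescaling to one sum moved the median of all genes to 0.20 in parental and 0.12 in resistant cells.

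**Figure D2:**
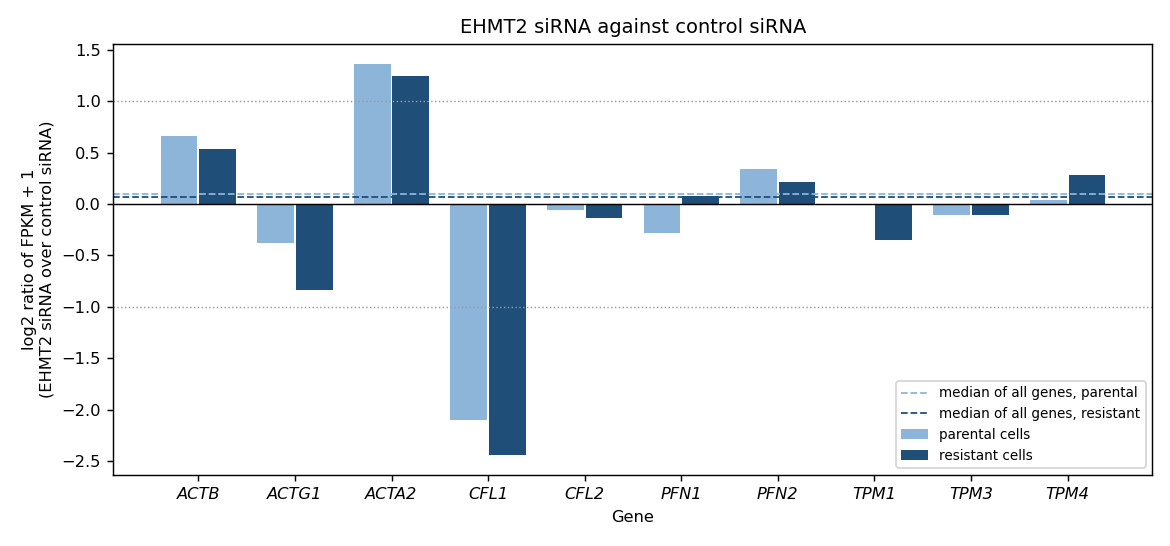
Log2 ratio of FPKM + 1, EHMT2 siRNA over control siRNA, for each gene in parental (light) and resistant (dark) cells, 1 library on each side of every ratio. Dashed lines give the median of all genes and dotted lines 2-fold. CFL1 reaches −2.10 and −2.44, ACTA2 1.36 and 1.24, and no other bar passes 2-fold.

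The choice of reference library mattered for ACTA2, ACTG1 and several other members. Against the no-siRNA libraries, ACTA2 with EHMT2 siRNA was 2.56-fold higher in parental but 1.64-fold higher in resistant cells, where the level had been 6.80 without and 4.14 with control siRNA. CFL1 was at 26.9% and 16.8% of the no-siRNA level. ACTB reached 2.28-fold of its no-siRNA level in parental and 1.58-fold in resistant cells. ACTG1 was at 64.8% of its no-siRNA level in parental but at 104.9% in resistant cells, so its direction turned there. CFL2, close to its control siRNA level, was at 1.75-fold of its no-siRNA level in parental and 1.95-fold in resistant cells. TPM3 had log2 ratios of 0.56 and −0.49 against no siRNA in parental and resistant cells, and TPM1 0.42 and −0.67. PFN1 had 0.08 and 0.23, PFN2 0.40 and 0.14, and TPM4 −0.06 and 0.06.

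Some features of the loci bear on these values. In GENCODE 29, 30.1% of the exonic bases of ACTA2 are shared with genes on the opposite strand, 516 bases with ACTA2-AS1 and 380 with FAS, a death receptor gene. For CFL1 the shared part is 19.0%, with MUS81 and SNX32, and no exonic base of ACTB or ACTG1 is shared. No source used here gives the strand setting of the authors' counting, so reads of such partners may not be told apart. FAS was at 4.11 with control and 8.89 with EHMT2 siRNA in parental cells, and at 3.24 and 4.31 in resistant cells, and its part in the ACTA2 level was not tested. MUS81, a DNA endonuclease gene, was at 11.1 and 9.76 in parental and 11.4 and 8.94 in resistant cells, far below CFL1. Within 250 kb of CFL1, 25 other genes reached 1 FPKM in an siRNA library. Their median ratios were 0.13 in parental and 0.08 in resistant cells, and 0 of them were at least 2-fold lower and 2 (EFEMP2 and CST6) at least 2-fold higher in both lines, beside 2.35% and 3.46% of all genes. The lowest ratio among them was −1.26, of FOSL1 in resistant cells, which had −0.13 in parental cells. The 4 such genes around ACTA2 had medians of −0.28 and −0.22, with 0 at least 2-fold higher in both lines. These neighbourhoods were looked at after the ratios were known.

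ACTA2 is a smooth muscle and fibroblast gene, and other markers of those cells were at low levels, though their sum was higher with EHMT2 siRNA than with control siRNA in both lines. Of 12 markers, 6 were listed at 0 in every library, among them COL1A2, COL3A1, DCN and PDGFRB, and MYH11, the smooth muscle myosin, was above 0 in resistant cells with EHMT2 siRNA alone, at 0.343. The summed FPKM of the 12 was 6.65 and 6.99 with no siRNA, 7.45 and 3.84 with control siRNA, then 12.96 and 8.02 with EHMT2 siRNA, to which COL1A1 gave 9.79 and 4.92 in the last pair. CNN1, calponin of smooth muscle, was listed at 0 in the other 4 libraries and at 1.39 and 1.46 with EHMT2 siRNA. SYNPO2, an actin-binding protein of smooth muscle, was likewise listed at 0 in those 4 and was at 0.524 and 0.627 with EHMT2 siRNA. DES and LMOD1, also of the 12, did not follow this pattern. DES was highest with no siRNA, at 1.87 and 3.13. It went from 1.44 with control to 1.26 with EHMT2 siRNA in parental cells, and from 0.246 to 0.664 in resistant cells. LMOD1 was listed at 0 in both EHMT2 siRNA libraries and at 0.246 in resistant cells with control siRNA. The part of these genes in the ACTA2 level was not tested. Among abundant genes, taken as the 469 with a mean of 100 FPKM or more after the data were seen, 34 in parental and 41 in resistant cells were at least 2-fold lower with EHMT2 siRNA, and 20 and 23 at least 2-fold higher. The shares of all genes were 3.51% and 4.04% lower, and 7.48% and 5.22% higher. Their medians were −0.14 and −0.05, while CFL1, one of them, had −2.10 and −2.44. The part of message abundance in the CFL1 level was not tested.

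Shares within a library do not depend on the scaling between libraries. ACTB made up 46.7% of the summed FPKM of the 3 actins in parental and 36.7% in resistant cells with control siRNA, against 64.1% and 59.8% with EHMT2 siRNA. That is 17.3 and 23.1 percentage points more. With no siRNA the ACTB share was 33.9% in parental and 49.8% in resistant cells. Against that reference the gain was larger in parental than in resistant cells. The ratio of ACTB to ACTG1 was below 1 in all 4 libraries without EHMT2 siRNA (0.513, 0.999, 0.880 and 0.582 in the order parental and resistant with no siRNA, then with control siRNA) and above 1 in both with it (1.80 and 1.51). The summed FPKM of the actins differed less, from 2708 to 3117 in parental and from 3217 to 2854 in resistant cells. CFL1 made up 97.7% to 99.1% of the 2 cofilins without EHMT2 siRNA and 91.3% and 90.3% with it.

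Destrin (DSTN), the third member of the actin-depolymerising factor family and no member of the set, was added to the cofilins after its values were seen. It was at 77.0 and 107 with control siRNA and at 125 and 139 with EHMT2 siRNA. Its share of the 3 was 12.1% and 16.2% with control siRNA, against 47.3% and 55.8% with EHMT2 siRNA. The sum of the 3 nevertheless went from 638 to 264 in parental and from 663 to 249 in resistant cells. Actins outnumbered cofilins and destrin 4.25-fold and 4.85-fold in summed FPKM with control siRNA, and 11.8-fold and 11.5-fold with EHMT2 siRNA. PFN1 and CFL1 were close to equal without EHMT2 siRNA, with PFN1 at 0.91-fold to 1.21-fold of CFL1, whereas with it PFN1 was at 4.29-fold and 6.33-fold.

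Profilin shares moved less, PFN1 holding between 84.3% and 90.3% in every library. Of the 3 tropomyosin members TPM4 held 49.8% to 62.2%. With TPM2, which the set leaves out, added after its values were seen, TPM2 itself held the most. TPM2 was at 295 and 283 with control siRNA and at 411 and 421 with EHMT2 siRNA, and its share of the 4 tropomyosins went from 51.4% to 60.04% in parental and from 49.4% to 57.6% in resistant cells.

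**Figure D3:**
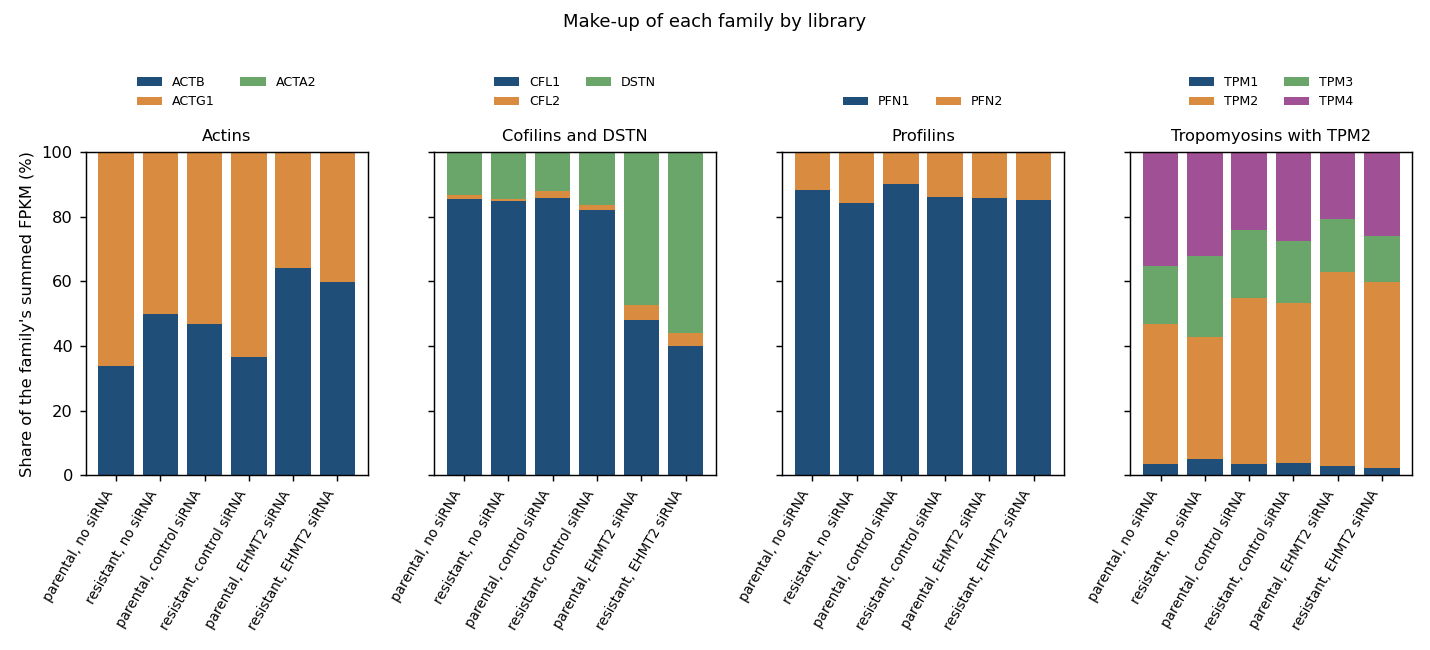
Share of each gene in the summed FPKM of its family (percent) in the 6 libraries, with DSTN beside the cofilins and TPM2 beside the other tropomyosins. ACTB exceeds ACTG1 only in the EHMT2 siRNA libraries, and DSTN goes from between 12.1% and 16.2% to 47.3% and 55.8% there.

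Other genes of actin turnover were read from a list of 98 that leaves out the 10 members, of which 91 reached 1 FPKM in some library. The limma fit over the 6 libraries, with line and treatment as terms and their interaction as the error, tested 90 of them. With Benjamini-Hochberg adjustment it called 0 for EHMT2 siRNA against control siRNA, the smallest adjusted p being 0.0529, and 31 were at an unadjusted p under 0.05. Over all 11521 genes tested it called 0% for this contrast, with 3060 at an unadjusted p under 0.05. Restricted to the 4 siRNA libraries, the same limma model with Benjamini-Hochberg adjustment called 44 of the 90, 27 higher and 17 lower, beside 42.5% of all genes, 23.8% higher and 18.7% lower. Counted by size, 9 of the 91 were at least 2-fold higher and 2 at least 2-fold lower in both lines, beside 3.46% and 2.35% of all genes. CNN1, 1 of the 9, was listed at 0 in both control siRNA libraries. It reached 1 FPKM only with EHMT2 siRNA, at 1.39 and 1.46, and was not among the 90 tested. The list's median ratios were 0.14 in parental and 0.08 in resistant cells, near those of all genes.

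The direct partners of cofilin did not share one direction. CAP1, which works with cofilin to strip monomers from filament ends, was at 84.7 and 101 with control siRNA and at 27.1 and 29.6 with EHMT2 siRNA (log2 ratios −1.61 and −1.73). In the 6-library limma fit CAP1 was lower by −1.67 (SE 0.17, adjusted p = 0.0529 with Benjamini-Hochberg adjustment), and in the 4-library fit the adjusted p was 0.00076. LIMK1, the kinase that inactivates cofilin by phosphorylation, had ratios of −0.96 and −1.09. WDR1, which speeds disassembly of cofilin-bound filaments, had 0.66 and 0.58. LIMK1 and WDR1 are named after their values were seen. SRF, which binds the CArG box, was at 11.4 and 11.7 with control siRNA and at 12.3 and 11.7 with EHMT2 siRNA.

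By role, the 2-fold higher genes were mostly of 2 groups. Of 7 genes of non-muscle myosin II, 4 (the light chains MYL6, MYL9, MYL12A and MYL12B) were at least 2-fold higher in both lines, as were 4 (CNN1, CNN3, TAGLN and TAGLN2) of 10 genes of tropomyosin partners and the pointed end. The myosin heavy chains did not follow. MYH9 went from 71.4 to 58.5 in parental and from 75.1 to 47.6 in resistant cells. MYH10 went from 15.7 to 15.1 and from 9.40 to 12.7, and MYH14 from 11.6 to 13.6 and from 8.12 to 6.71. Against the no-siRNA libraries the direction of MYL12A and MYL12B turned in resistant cells. MYL12A was there at 529 with no siRNA and 476 with EHMT2 siRNA (log2 ratio −0.15), and MYL12B at 887 and 629 (−0.50), while in parental cells their ratios were 0.60 and 0.92. TAGLN, against the same reference, had 1.69 in parental but 0.32 in resistant cells. Ranked by the smaller of its ratios in the 2 lines, MYL6, an essential light chain, came first, with 256 and 300.5 in the control libraries against 745 and 874 after EHMT2 siRNA (1.54 in each line). CNN3, an actin-binding calponin, followed with 1.46 and 1.26, and then CNN1, which reached 1 FPKM only with EHMT2 siRNA. At the other end, after CAP1, were TLN1 (−1.37 and −1.80), the talin that couples integrins to actin, and CAPG (−0.96 and −1.01), which caps filament ends. Of 12 genes of the Arp2/3 complex and its activators, 7 were higher and 3 lower in both lines, with 0 at least 2-fold apart in either direction in both.

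**Figure D4:**
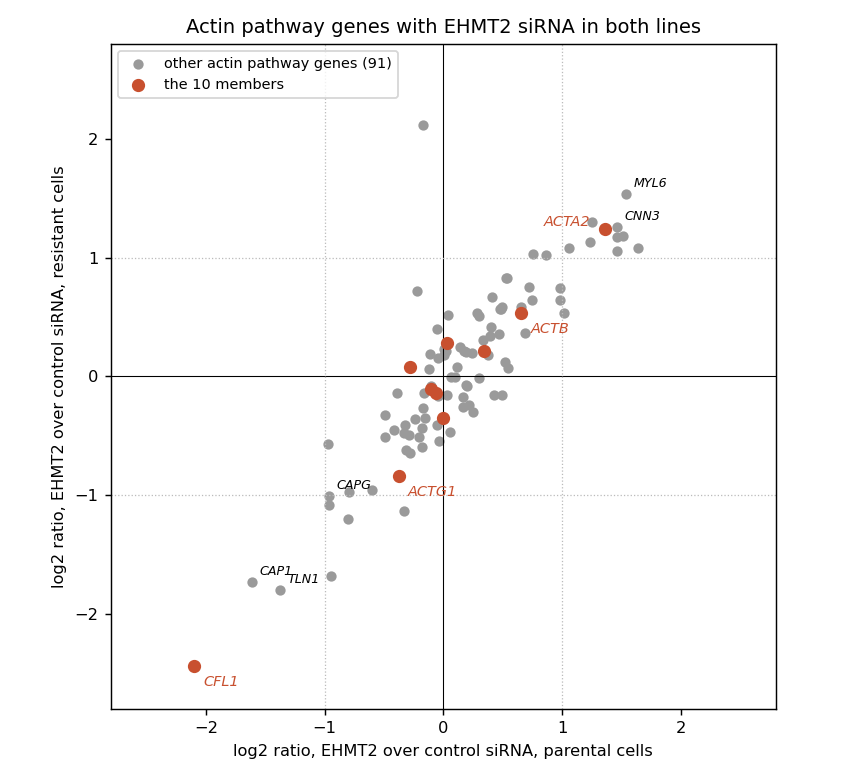
Log2 ratio of EHMT2 over control siRNA in parental (x axis) and resistant cells (y axis) for the 10 members (red) and 91 other actin pathway genes (grey), with dotted lines at 2-fold. CFL1 lies beyond all other genes drawn at the lower left, with CAP1 and TLN1 next along the diagonal, and ACTA2 lies near CNN3 and MYL6 at the upper right.

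Genes whose centred log2 profile over the 6 libraries was closest to a member were taken from 8247 genes with a mean of 5 FPKM or more. For CFL1 these were NRGN, LSM2, TK1, GNAI2 and CAP1, with root mean square distances of 0.14, 0.18, 0.25, 0.29 and 0.30. Of these, LSM2 encodes a subunit of the ring that binds U6 RNA, TK1 thymidine kinase and GNAI2 an inhibitory G protein subunit. For ACTA2 they were RANBP6, VOPP1, ATG4A, PGRMC1 and POLR2L, with distances of 0.04 to 0.10. ATG4A, for example, was at 3.44 and 2.92 with control siRNA and at 9.80 and 9.86 with EHMT2 siRNA. These distances are a description.

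The comparison of resistant with parental cells was read in 3 pairs of libraries and was not used to choose the members. In no pair was any member at least 2-fold apart, beside 3.48% of all genes at least 2-fold higher and 3.92% lower with no siRNA, 1.6% and 0.96% with control siRNA, then 1.54% and 1.55% with EHMT2 siRNA. The limma fit over the 6 libraries called 0 of the 10 members for the line, with 1 (PFN2) at an unadjusted p under 0.05. That fit called 0% of all genes, the smallest Benjamini-Hochberg adjusted p being 0.318, and 603 were at an unadjusted p under 0.05. Restricted to the 4 siRNA libraries it also called 0 members, where 8.96% of all genes passed, 4.49% higher and 4.47% lower.

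PFN2 and TPM4 were the members above 0 in all 3 line pairs, 2 of 10, and CFL2 was below 0 in all 3, beside 14.1% of all genes above and 12.4% below. PFN2 was higher in resistant cells by 0.54, 0.41 and 0.28 (log2) with no siRNA, control siRNA and EHMT2 siRNA. The limma fit gave 0.41 (SE 0.15, adjusted p = 0.921 with Benjamini-Hochberg adjustment over all genes), and 0.34 (SE 0.11, adjusted p = 0.0971) with the 4 siRNA libraries. TPM4 had 0.31, 0.18 and 0.42, and a coefficient of 0.30 (SE 0.16, adjusted p = 0.941 in the limma fit with Benjamini-Hochberg adjustment). CFL2 had −0.30, −0.10 and −0.18.

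The remaining members had no single direction. TPM1 and TPM3 were each higher by 0.93 in resistant cells with no siRNA, 1.97-fold and 1.92-fold, but in the control siRNA pair had 0.18 and −0.12, and in the EHMT2 siRNA pair −0.16 and −0.12. Once each library was scaled to one sum, both exceeded 2-fold in the no-siRNA pair. ACTG1 had −0.66 with no siRNA, 0.50 with control siRNA and 0.03 with EHMT2 siRNA, the last being −0.28 after quantile normalisation. ACTB had 0.30, −0.10 and −0.23, ACTA2 0.41, −0.03 and −0.15, and CFL1 0.33, −0.01 and −0.35. PFN1 had 0.06, −0.16 and 0.20, with the last at −0.21 after quantile normalisation and the first at −0.01 after median centring. Over the 10 members the median was 0.32 with no siRNA, −0.02 with control siRNA and −0.14 with EHMT2 siRNA, beside 0.07, −0.02 and −0.05 over all genes. Rescaling to one sum moved the median of all genes to 0.28 in the no-siRNA pair.

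**Figure D5:**
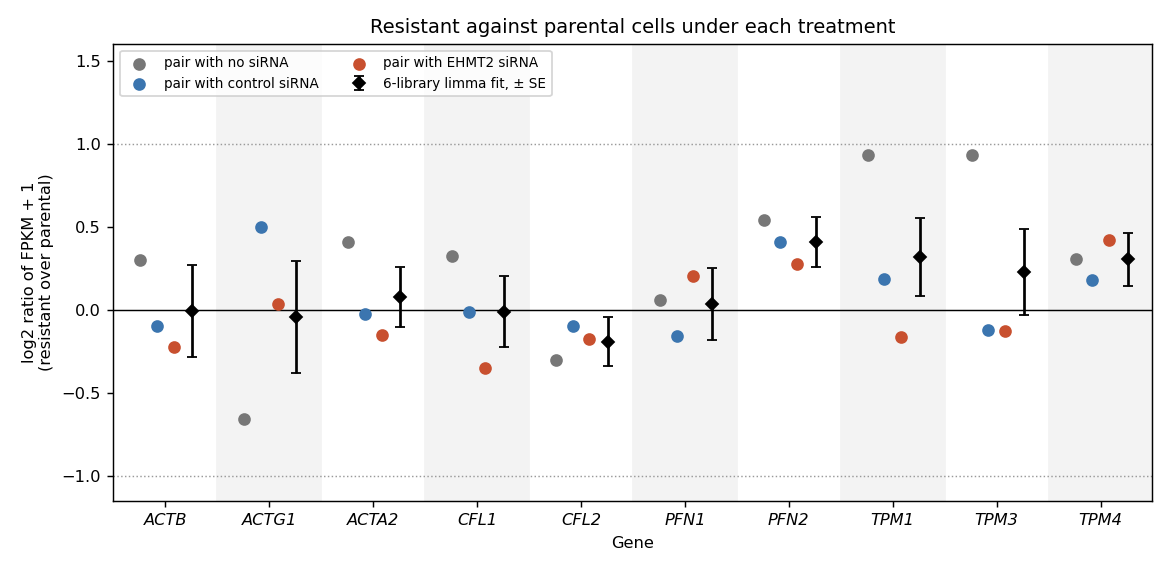
Log2 ratio of FPKM + 1, resistant over parental, for each gene in the pair with no siRNA, with control siRNA and with EHMT2 siRNA (circles), and the line coefficient of the 6-library limma fit ± SE (diamonds). PFN2 and TPM4 lie above 0 in every pair, while TPM1 and TPM3 reach 0.93 in the no-siRNA pair alone.

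The last comparison is control siRNA against no siRNA, and it shares the control siRNA libraries with the EHMT2 contrast. Titles of the no-siRNA libraries do not say whether those cells were otherwise handled alike. Transfection therefore cannot be told apart from other differences between these libraries, such as culture or batch. CFL2 was 1.83-fold higher in parental (log2 ratio 0.79) and 2.17-fold higher in resistant cells (0.99) with control siRNA. On the log2(FPKM + 1) scale neither reached 2-fold, and 0 members did, beside 0.954% of all genes at least 2-fold higher and 2.08% lower in parental and 4.31% and 3.87% in resistant cells. The limma fit over the 6 libraries gave CFL2 a coefficient of 0.89 (SE 0.18, unadjusted p = 0.00332, adjusted p = 0.700 with Benjamini-Hochberg adjustment) and called 0 of the 10 members. It called 0.0434% of all genes, 5 of 11521 (0.0347% higher and 0.00868% lower), with 813 at an unadjusted p under 0.05. Without the parental no-siRNA library the CFL2 coefficient was 0.97, and without the resistant no-siRNA library it was 0.81. In these fits the lone no-siRNA library is assumed to vary like the others.

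ACTG1, TPM1 and TPM3 had opposite signs in the 2 lines in this comparison, a difference that was not tested. ACTG1 had −0.25 in parental and 0.91 in resistant cells, with the parental value at 0.11 after quantile normalisation. TPM3 had 0.66 and −0.39, TPM1 0.43 and −0.32. TPM4 was lower in both lines, at −0.09 and −0.22, the first being 0.09 once each library was scaled to one sum. ACTB had 0.53 and 0.13, the second being −0.46 after quantile normalisation. CFL1 (0.21 and −0.12, the second −0.71 after quantile normalisation) and ACTA2 (−0.17 and −0.60) were lower with control siRNA in resistant cells.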

How the data were processed

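Libraries were made with a TruSeq v2 kit, per the labels' protocols. StringTie 2.1.1, HISAT2 2.2.1, cutadapt 4.9, FastQC 0.12.1 and GRCh38 are listed in the submitters' processing notes, in no order. Neither annotation nor strand setting is given in the sources used here. The authors deposited FPKM values, 1 table of 19957 rows per library; low values had no steps of whole reads, so depth is unknown. Of rows sharing a symbol, the one of highest mean was kept. Ratios are log2(FPKM + 1). The additive model was fitted with limma 3.58.1 (R 4.3.3, mean-variance trend, Benjamini-Hochberg, threshold 0.05) to genes reaching 1 FPKM in 3 or more libraries. Only its line term with 6 libraries was tried on simulated data, with normal noise of the fitted variances. That simulation held no interaction of line and treatment, so it cannot show how such an interaction affects the calls. It did not cover the siRNA terms or the fit to the 4 siRNA libraries. Residual degrees of freedom were 2 with 6 libraries and 1 with the 4 siRNA libraries. The p-values of the model measure the spread among these libraries only. Coordinates, exon sharing and coding sequences come from GENCODE 29 (GRCh38). The members and lists were chosen with earlier results of these data known. Named by rule were the members, the 5 nearest profiles to CFL1 and ACTA2, the 3 highest and 3 lowest pathway genes by the smaller EHMT2 siRNA ratio, EHMT2, and genes sharing exons with a member. Tried as alternatives were no filter or 5 FPKM, a pseudocount of 0.1, one sum per library, median centring, quantile normalisation, 1.5-fold, no trend, the 4 siRNA libraries, and leaving out each library.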

Additional observations from a re-analysis of the deposited data

Results flagged for a closer look

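These members differed in opposite directions in the same contrast under 2 conditions, past a minimum size chosen after the values were seen. With 1 library a group these differences were not tested. ACTG1 was lower in resistant than in parental cells with no siRNA (log2 ratio −0.66) and higher with control siRNA (0.50), a difference of −1.16. CFL1 was higher in resistant cells with no siRNA (0.33) and lower with EHMT2 siRNA (−0.35), a difference of 0.68. TPM3 was higher with control siRNA than with no siRNA in parental cells (0.66) and lower in resistant cells (−0.39), a difference of 1.05. Each of the 3 rests on the libraries with no siRNA named in their label, in which TPM1 and TPM3 also had their lowest and highest levels.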

How the results depend on the processing

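No paired analysis was possible because every group holds a single library and all carry the same replicate number, so a block on that number cannot be fitted; the cell line is a term of the 6-library fit. CFL1 and ACTA2 stayed at least 2-fold apart in both lines with EHMT2 siRNA under a pseudocount of 0.1, one sum per library, median centring and quantile normalisation. With the no-siRNA libraries as reference, an alternative added after seeing the data, only CFL1 did, so the count went from 2 to 1. Members at least 2-fold apart between the lines numbered 0, but 2 (TPM1 and TPM3) with one sum per library and 3 (with ACTG1) at 1.5-fold. Calls for the line among the members stayed at 0 in every fit. For control siRNA against no siRNA, the CFL2 coefficient ran from 0.81 to 0.97 on leaving out each library. Whether CFL2 was called depended on the library left out. For the actin pathway list, EHMT2 siRNA calls were 8 with a filter of 5 FPKM and 44 with the 4 siRNA libraries, the latter beside 42.5% of all genes. The share of all genes was not computed for the 5 FPKM filter, so those 8 calls cannot be set against it. Line calls were 6 with the 4 siRNA libraries, beside 8.96% of all genes. Both counts also depended on which library was left out, in fits with 1 residual degree of freedom. Among single members, ACTB and CFL1 in resistant cells, control siRNA against no siRNA, moved by over 1.5-fold under quantile normalisation (−0.46 and −0.71). The TPM4 share of the tropomyosins, higher by 4.70 percentage points with EHMT2 siRNA on average over both lines, was −2.39 with TPM2 added. Read depth is unknown, which limits what can be said of low levels such as those of ACTA2 and CFL2.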
